A study of Mus musculus with 12 samples.

Results

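The data described here are the contacts that an enhancer of Mycn made with Cyria and with the gene-poor DNA beyond it, on mouse chromosome 12. The members are all 10 kb windows of the Mycn enhancer table that start from 11791000 to 12380000 (mm10), which gave 529 of the 7348 listed windows. The rule uses position alone and no measured value, but it was set with earlier results of these data known. Of the 529, 118 start in the body of Cyria, 12262134 to 12380965, and 411 start in the desert between 11791000 and 12262133. Windows step by 1 kb, so the Cyria body allows 118 starts and the desert 472, of which 61 desert starts were not listed and were not analysed here. At the outer edge the first window inside, from 11791001, held 0.0114 and 0.293 counts per 1000 in the ES libraries and 0 and 0.0841 in the MEF libraries, and the last one outside, from 11790001, held 0.0114, 0.293, 0 and 0.202 in the same order. At the inner edge the last window inside, from 12380001, held 1.06, 0.366, 2.21 and 1.18, and the first one outside, from 12381001, held 1.56, 0.733, 2.33 and 1.72.

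Contacts were read by 4C-seq: crosslinked chromatin is cut with DpnII and religated, cut again with Csp6I and closed to circles, and what was joined to 1 chosen site, the viewpoint, is amplified and sequenced. The ES group was 2 libraries of mouse embryonic stem cells of the V6.5 line in 2i medium. The MEF group was 2 libraries of reprogrammable embryonic fibroblasts from rtTA3-OKSM embryos at stage E13.5, kept in DMEM, with 1 copy each of an Oct4-GFP reporter, the OKSM reprogramming cassette and rtTA3, the activator that doxycycline switches on. Their labels name no doxycycline and do not say how many embryos were used. The design text presents 4C-seq as a check on genome-wide contact assays, and the comparison asks where along this flank the enhancer's contacts differ between pluripotent cells and fibroblasts. The groups differ in genotype, culture and cell type together, and these cannot be told apart.

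The viewpoint was placed at 12786001 to 12796000, the window of highest mean, so that the interval lies from 410 kb (the near end of Cyria) to 1000 kb away, on the side opposite to Mycn. The ES libraries totalled 88038 and 27290 counts (replicates 1 and 2, the order used throughout) and the MEF libraries 16774 and 59424. A value of 1 count therefore ranged from 0.0114 to 0.0596 per 1000, and MEF replicate 1 was the coarsest. Both replicate pairs differed by more than sampling noise over this interval (chi-square of counts in windows that do not overlap, p = 1.8e-34 for ES and 1.8e-30 for MEF), so each library was kept as 1 replicate. Across the 529 overlapping windows, which are not independent, Pearson's r of log2 values was 0.82 between the ES libraries and 0.67 between the MEF libraries. Within the Cyria body alone it was 0.41 and 0.30, so fine peaks agreed poorly between replicates there. The labels do not say whether replicates were separate cultures, and p-values therefore describe only the spread among these libraries, which may be technical.

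An enhancer is a stretch of regulatory DNA that can act on a gene far along the chromosome, and its contacts usually become rarer with distance unless loops or shared compartments bring remote DNA near. Mycn encodes a MYC-family transcription factor of stem and progenitor cells. Cyria, formerly Fam49a, encodes a Rac1-binding protein that holds back the Scar/WAVE and Arp2/3 route to branched actin. Gene deserts often carry noncoding transcripts and regulatory DNA of genes that flank them. Contact values show where the enhancer's chromatin was ligated, and they hold no expression.

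Cyria is transcribed away from its own desert and toward the viewpoint. Its start, at 12262177, is therefore the far end of the gene, 529 kb from the viewpoint, and its last exons are the near end. DpnII cuts at GATC, so only fragments between such sites can be seen, and the 250 bases before a start show what the assay can resolve there. Of the 11 genes in the interval, 3 matched the RefSeq promoter table. The stretch is printed for Cyria, because the gene body begins there, and for the lncRNA genes Gm34348 and Gm34237 (the farther of its starts) as the desert's own starts. They come from RefSeq (GRCm38.p6), 5′ to 3′ on the gene's strand, with GATC in capitals.

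Cyria: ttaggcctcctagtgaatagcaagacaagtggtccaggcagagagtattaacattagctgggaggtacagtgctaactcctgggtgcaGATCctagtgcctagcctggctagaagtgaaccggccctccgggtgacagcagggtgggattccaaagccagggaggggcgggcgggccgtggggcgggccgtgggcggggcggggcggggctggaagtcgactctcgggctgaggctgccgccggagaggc
Gm34348: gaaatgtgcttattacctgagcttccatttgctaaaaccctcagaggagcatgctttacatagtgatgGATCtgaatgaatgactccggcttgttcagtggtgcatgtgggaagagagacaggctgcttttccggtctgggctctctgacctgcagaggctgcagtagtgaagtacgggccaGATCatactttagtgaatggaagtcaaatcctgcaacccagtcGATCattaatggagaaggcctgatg
Gm34237: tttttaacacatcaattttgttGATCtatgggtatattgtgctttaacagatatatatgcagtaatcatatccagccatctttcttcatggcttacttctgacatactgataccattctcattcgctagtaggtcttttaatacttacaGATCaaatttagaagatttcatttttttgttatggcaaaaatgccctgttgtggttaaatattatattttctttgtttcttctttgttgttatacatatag

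The Cyria stretch lies on the plus strand at chr12:12261927-12262176. It was 64.8% G or C, held 14 CpG pairs and had 1 GATC, 162 bases before the start. Over 32851 promoter stretches of the same length, the median was 52.4% G or C and 6 CpG, and 70.6% had fewer CpG than Cyria. A GATC was found in 41.9% of them and a GTAC, the Csp6I site, in 31.5%. Gm34348 lies on the minus strand at chr12:12147696-12147945, with 48.0% G or C, 4 CpG and 3 GATC. Gm34237, on the plus strand at chr12:11826235-11826484, was 29.2% G or C with 1 CpG and 2 GATC. Both motifs read the same on the other strand and cannot overlap each other, and a match only describes the sequence.

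The interval as a whole was contacted more often in MEFs than in ES cells. Windows that do not overlap held 2.74% (95% exact binomial interval 2.64 to 2.85) and 2.76% (2.57 to 2.96) of the library total in ES replicates 1 and 2. The MEF libraries held 5.33% (4.99 to 5.68) and 4.32% (4.15 to 4.48). The ES values lay close together and below both MEF values, by 2.07 percentage points on average. With 2 libraries against 2 an exact permutation test cannot go below p = 0.333, which is the value it gave. Intervals cover counting error only.

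Gene and desert were both higher in MEFs. The mean per window over the Cyria body was 1.16 and 1.27 counts per 1000 in the ES libraries, and 1.91 and 1.61 in the MEF libraries. That is 1.22 ± 0.08 in ES cells against 1.76 ± 0.21 in MEFs (SD, n = 2 each), or 1.45-fold more in MEFs. The desert mean was 0.363 and 0.328 in the ES libraries and 0.674 and 0.571 in the MEF libraries. That is 0.346 ± 0.025 against 0.623 ± 0.073 (SD, n = 2 each), or 1.80-fold more in MEFs. In neither did the groups overlap.

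The Cyria difference passed the limma test over gene bodies, with a log2 difference, ES minus MEF on log2(value + 1), of -0.32 (SE 0.10, adjusted p = 0.0129). Of the 7 features tested in that fit, 5 were called, all higher in MEFs (71.4% of those tested), so the call does not set Cyria apart. The desert did not reach the filter of 1 per 1000 in 2 libraries. In the limma fit without the filter it was not called (log2 difference -0.27, adjusted p = 0.210), and neither was Cyria (adjusted p = 0.0908). By edgeR's quasi-likelihood test on the recovered counts, among features with at least 20 counts, Cyria differed by -0.53 (adjusted p = 0.0043) and the desert by -0.84 (adjusted p = 8.4e-08). There 8 of 74 features were called (10.8%), 6 of them higher in MEFs (8.11%).

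These calls had limits. The limma call of Cyria was lost without ES replicate 1 (adjusted p = 0.420), ES replicate 2 (0.276) or MEF replicate 1 (0.0919). The edgeR call of Cyria was lost when any 1 library was left out (adjusted p from 0.0875 to 0.580) and that of the desert only without MEF replicate 1 (adjusted p = 0.0593). Centring each library on its median turned the limma difference of Cyria to 0.17 (adjusted p = 0.445) and quantile normalization turned it to 0.071 (adjusted p = 0.740).

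Scaling matters here because values are shares of a total. Centring on the median moved the median log2 difference over all 1107 tested windows from -0.15 to 0.12, and that over the 169 tested windows of the interval from -0.25 to 0.01. Centring shifts every window of a library alike, so the gap between these medians cannot change with it, while the sign of the interval's median against 0 did change.

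**Figure D1:**
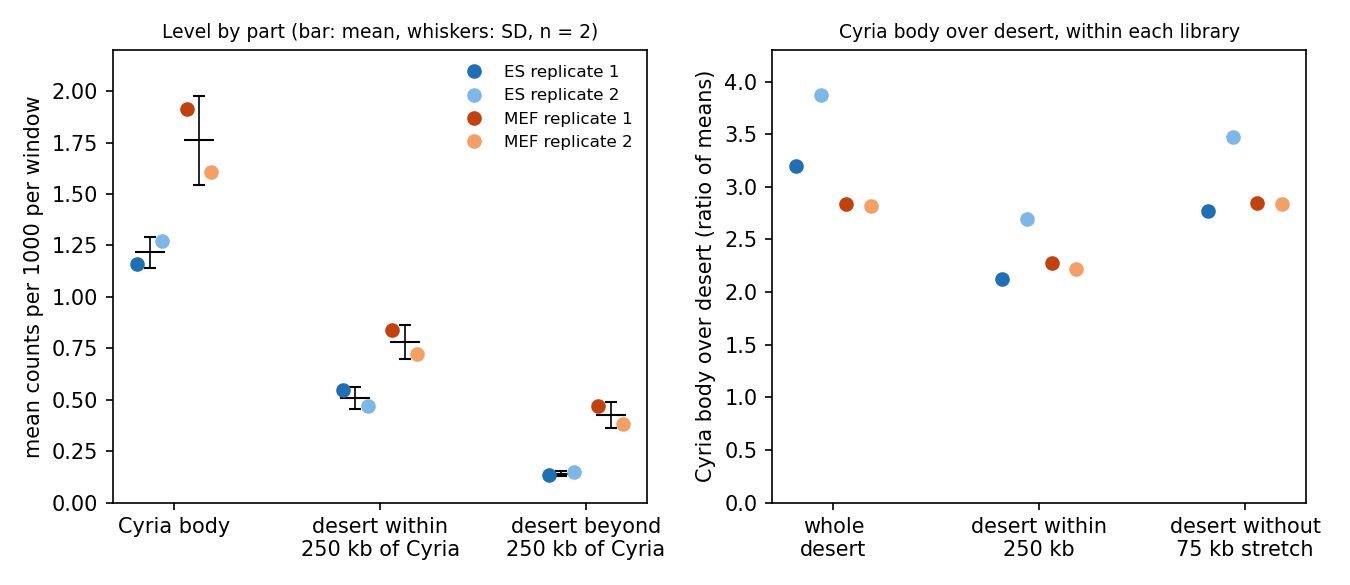
Left, mean counts per 1000 per window in each library for the Cyria body, the desert within 250 kb of Cyria and the desert beyond it; points are libraries, bars the group means and whiskers the SD (n = 2). Right, the ratio of the Cyria mean to a desert mean within each library. MEF points lie above ES points in all 3 parts on the left, with the widest ratio beyond 250 kb. On the right the ES libraries lie above the MEF libraries for the whole desert, at 3.20 and 3.87 against 2.84 and 2.82, and overlap them for the other 2 choices of desert.

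The ratio of the Cyria mean to the mean of the whole desert was higher in the ES libraries. Within a library, the Cyria mean was 3.20 and 3.87 times the desert mean in the ES libraries, and 2.84 and 2.82 times in the MEF libraries. This ratio does not depend on library scaling. The ES libraries lay above the MEF libraries, by 0.32 on the log2 scale (1.82 ± 0.20 against 1.5 ± 0.01, SD, n = 2 each; exact permutation p = 0.333, the smallest possible). The order of the groups rested on the far desert. Against the desert within 250 kb of Cyria the ratios were 2.12 and 2.69 in the ES libraries and 2.28 and 2.22 in the MEF libraries, which overlap, with a log2 difference of 0.09 (exact permutation p = 1). Over only the windows that passed the filter the difference turned to -0.070. These ratios compare whole stretches and do not measure a step at the gene's edge. Across the Cyria start, by 50 kb segments, ES replicates 1 and 2 went from 1.21 and 1.02 (desert side) to 1.09 and 1.16 (gene side). MEF replicates 1 and 2 went from 1.24 and 1.10 to 1.41 and 1.35.

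Distance within the desert separated the groups. Within 250 kb of Cyria the desert mean was 0.547 and 0.472 in the ES libraries and 0.838 and 0.724 in the MEF libraries, 1.53-fold more in MEFs. Beyond 250 kb it was 0.134 and 0.148 against 0.469 and 0.381, a 3.01-fold difference. The drop from the near to the far desert was thus deeper in the ES libraries. The slope of log2 level on log2 distance, over 50 kb segments, was -3.98 and -3.53 in the ES libraries and -2.35 and -2.60 in the MEF libraries. The steeper ES decline, by 1.28, did not overlap the MEF slopes (exact permutation p = 0.333, the smallest possible). It was not particular to this flank. On the Mycn side, from 400 to 450 kb out to 950 to 1000 kb, the ES libraries fell from 3.32 and 2.85 to 0.104 and 0.131. The MEF libraries fell there from 3.29 and 3.05 to 0.396 and 0.209. No slope was fitted on that side.

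**Figure D2:**
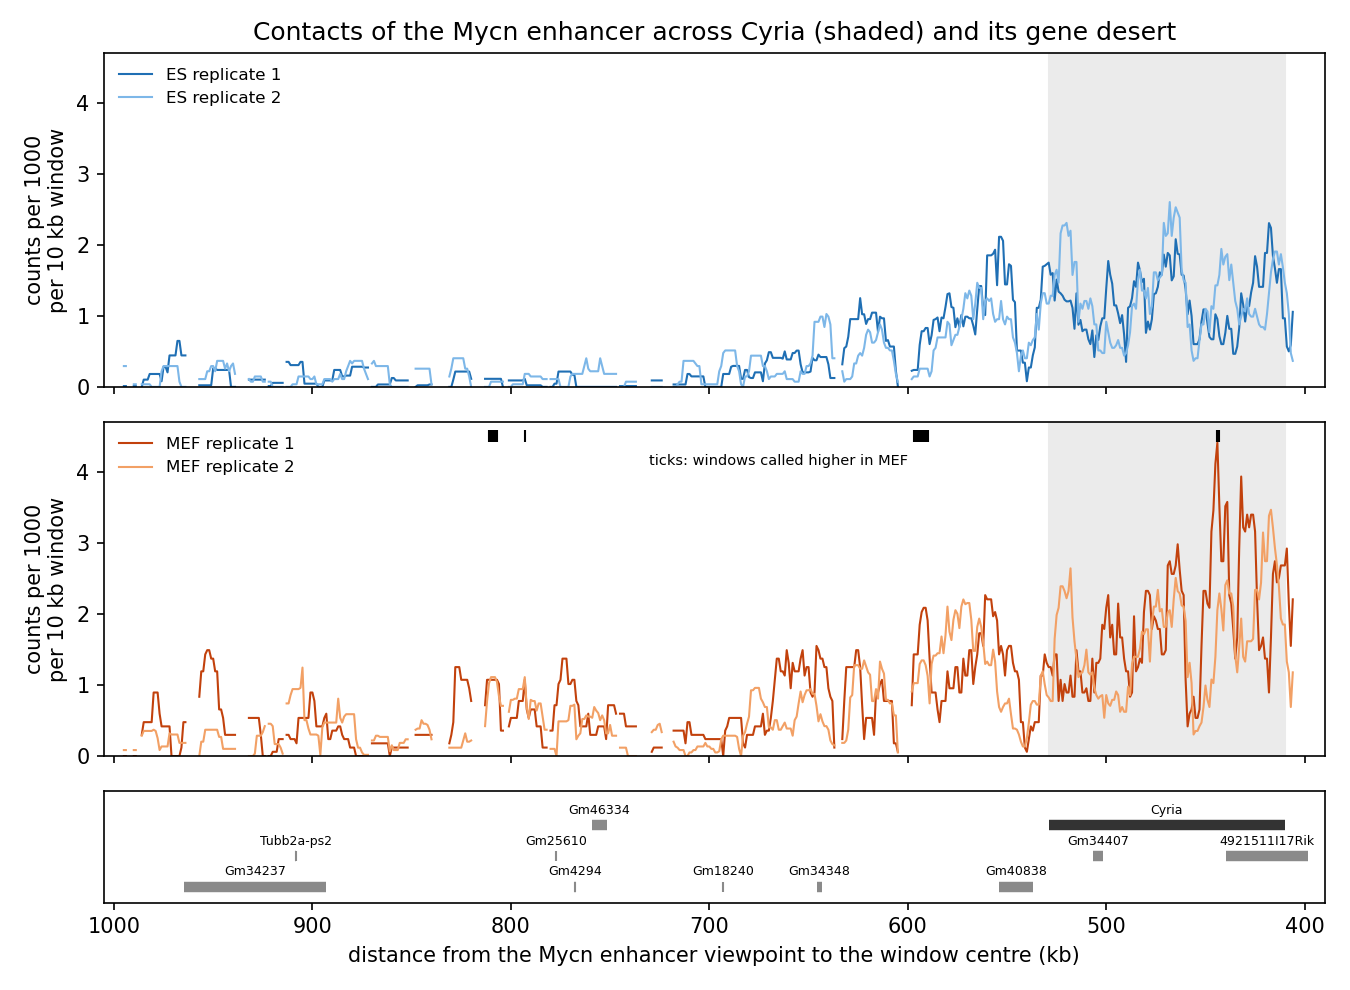
Counts per 1000 in each 10 kb window against the distance of its centre from the viewpoint, for the ES libraries (top) and the MEF libraries (middle), with gaps where windows were not listed; ticks mark windows called by limma, and the lowest panel maps the 11 genes (Cyria in dark grey and shaded above). Both ES lines run near 0 around 750 to 820 kb, where both MEF lines reach about 1, and the highest MEF peak lies in the near end of Cyria.

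Position by position, without any filter, 445 of the 529 windows (84.1%) had a log2 difference below 0, against 4121 of all 7348 windows (56.1%). The median was -0.25 in the interval and -0.03 over all 7348 windows. Both ES libraries lay below both MEF libraries in 251 of the 529 windows (47.4%), where 23.7% of all listed windows did so. The reverse order held in 18 of the 529 (3.40%), against 17.8% of all listed windows. Among windows that passed the limma filter the gap was narrower. Both ES libraries lay below both MEF libraries in 77 of 169 in the interval (45.6%) and 439 of 1107 over the table (39.7%). The reverse order held in 8 of those 169 (4.73%), against 26.8% of the 1107. Of the 169, however, 24 passed the filter through the MEF libraries alone and 1 through the ES libraries alone. The filter fixed the order of the groups in these windows, and in any such windows elsewhere in the table, so they support nothing. Without the filter, the Cyria body (51 of 118) and the desert (200 of 411) had like shares of windows with both ES libraries lower. Neighbouring windows share up to 9 of their 10 kb, so these counts rest on far fewer separate fragments.

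In segments of 50 kb, counted from the Cyria start, 10 of 11 had both ES libraries below both MEF libraries, against 25.7% of the 241 segments with at least 20 counts. The 11 are those centred in the interval and run from 11812134 to 12362133. They leave out the near end of Cyria beyond that and the outermost desert, as do the 50 kb slopes above. The exception was the segment that ends at the Cyria start, 12212134 to 12262133, with 1.21 and 1.02 in the ES libraries and 1.24 and 1.10 in the MEF libraries. The next segment, the far end of Cyria from 12262134, held 1.09 and 1.16 against 1.41 and 1.35. The segment from 12312134, nearer to the viewpoint, held 1.15 and 1.38 against 2.36 and 1.62. The fold of MEF over ES was lowest on either side of the Cyria start, at 1.05 and 1.23, and between 1.57 and 7.64 in the other 9 segments.

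Of these 11 segments only 3 reached the limma filter. The log2 differences were -0.04 at 12212134 (adjusted p = 0.743), -0.17 at 12262134 (adjusted p = 0.180) and -0.39 at 12312134 (SE 0.11, adjusted p = 0.0013). The last was called, beside 15 of 22 segments in the whole fit (68.2%), 10 of them higher in MEFs (45.5%). That call held by edgeR on the same 3 segments (adjusted p = 0.0024). It was lost by edgeR among segments with at least 20 counts, where tool and filter both differ (adjusted p = 0.0890), with median centring (0.160), with quantile normalization (0.803), without ES replicate 1 (0.112) and without MEF replicate 1 (0.338).

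edgeR tested all 11 segments and called 2, both higher in MEFs, against 4.98% of 241 segments called and 2.9% called higher in MEFs. The segment from 11962134 to 12012133 held 0.0864 and 0.0903 in the ES libraries and 0.710 and 0.641 in the MEF libraries, a 7.64-fold difference, from 31, 10, 49 and 156 counts. Both ES libraries were low and both MEF libraries agreed. Its edgeR log2 difference was -2.94 (adjusted p = 0.000470), and it stayed called in all 8 edgeR alternatives tried. The segment from 12012134 to 12062133 held 0.0441 and 0.136 against 0.528 and 0.380, with a log2 difference of -2.40 (edgeR adjusted p = 0.0306). It was not called with TMM normalization (adjusted p = 0.107) or without ES replicate 1 (adjusted p = 0.449).

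At 25 kb, 24 segments overlap the interval and edgeR called 6, all higher in MEFs, against 9.71% of 340 segments called and 6.18% called higher in MEFs. They fell in 3 places. The first was a stretch of 3 neighbours from 11962134 to 12037133, with log2 differences of -2.95, -2.91 and -2.37 (edgeR adjusted p = 0.0039, 0.0023 and 0.0153). The next was a single segment from 12187134, with 0.813 and 0.484 in the ES libraries and 1.20 and 1.45 in the MEF libraries, a log2 difference of -1.0 (edgeR adjusted p = 0.0430). The last place was the near end of Cyria. There the segment from 12337134 held 0.946 and 1.29 against 2.98 and 1.76 (log2 difference -1.07, edgeR adjusted p = 0.000270) and that from 12362134 held 1.40 and 1.23 against 2.21 and 2.25 (log2 difference -0.76, edgeR adjusted p = 0.0153). The latter segment runs to 12387133, past the end of Cyria at 12380965. Some of its windows therefore start outside both the gene and the interval.

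The number of 25 kb calls moved with the libraries used, from 6 to 2 without ES replicate 1, 3 without ES replicate 2, and 1 without either MEF replicate. With TMM normalization it was 3, and each of the 6 lost its call in at least 2 of the 8 edgeR alternatives. In 16 of the 24 both ES libraries lay below both MEF libraries, against 24.7% of the 340. The reverse order occurred in 1 (68 of the 340 over the whole table), the segment from 12237134 that ends at the Cyria start and overlaps the lncRNA gene Gm40838, with 1.02 and 0.901 in the ES libraries and 0.887 and 0.769 in the MEF libraries (edgeR adjusted p = 0.891).

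**Figure D3:**
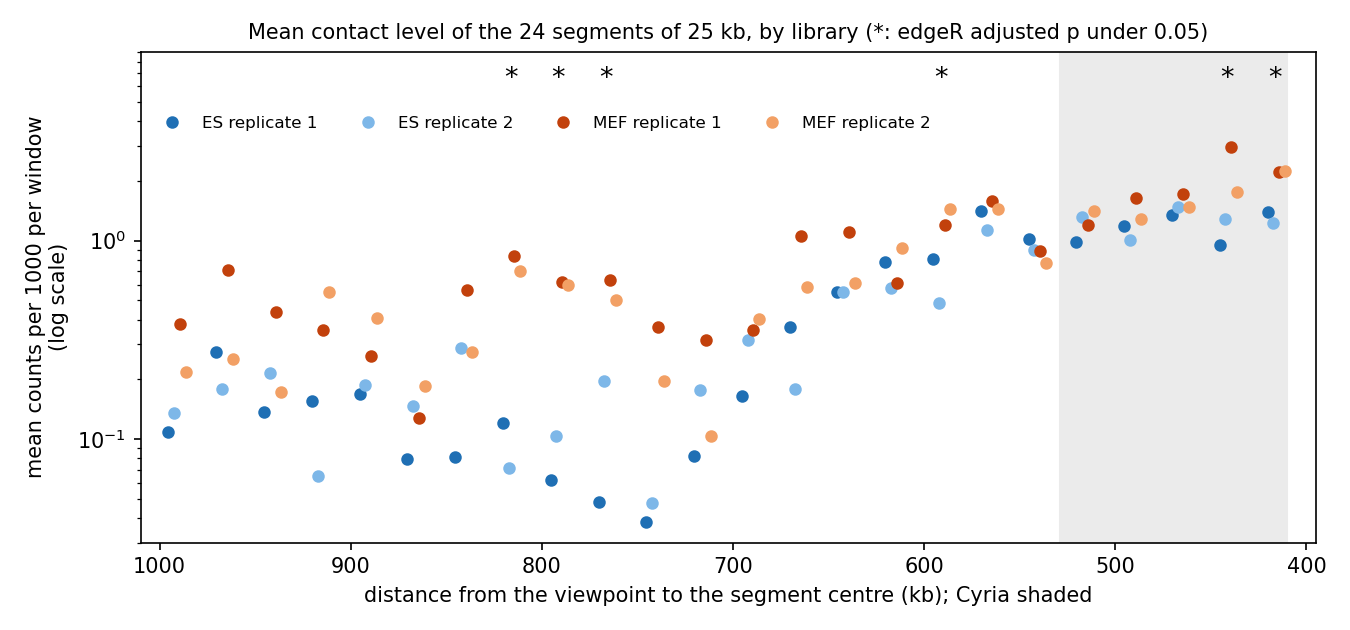
Mean counts per 1000 per window (log scale) of the 24 segments of 25 kb in each library, against the distance of the segment centre from the viewpoint; points of 1 segment are set side by side, Cyria is shaded and asterisks mark the 6 segments called by edgeR. The groups part most around 770 to 820 kb, meet between 500 and 570 kb around the Cyria start, and part again in the near end of Cyria.

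The 3 called neighbours from 11962134 to 12037133 straddle the split at 250 kb from Cyria. They were chosen for a closer description after their values were seen, so no test is given for them together. Over their 66 windows the ES libraries averaged 0.0719 and 0.130 counts per 1000 and the MEF libraries 0.682 and 0.589. All 66 had a log2 difference below 0. In the MEF libraries this stretch lay close to the whole-desert means of 0.674 and 0.571, whereas in the ES libraries it lay far below those of 0.363 and 0.328. Without these windows the desert means were 0.419 and 0.366 against 0.672 and 0.568, still 1.58-fold more in MEFs. Without them, too, the ratio of Cyria to desert was 2.77 and 3.47 in the ES libraries and 2.84 and 2.83 in the MEF libraries, so that the groups overlapped.

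The near end of Cyria was also marked off after its values were seen, as its last 43 windows. They held 1.14 and 1.28 in the ES libraries and 2.60 and 1.98 in the MEF libraries, 1.89-fold more in MEFs. The other 75 windows, at the promoter end, held 1.17 and 1.26 against 1.52 and 1.39, a 1.20-fold difference. In ES cells both parts of the gene body thus had nearly equal means, and in MEFs the part nearer to the viewpoint had the higher mean. These means do not show the course from window to window, which varied within the gene body in both groups.

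Window by window, 169 of the 529 passed the limma filter, 100 in Cyria and 69 in the desert. Of these, 16 were called, all higher in MEFs, 2 in Cyria and 14 in the desert. Over all 1107 tested windows 30.6% were called and 14.2% were called higher in MEFs, so the share in the interval, 9.47%, lay below both. At an unadjusted p under 0.05 there were 30, against 474 of the 1107. All 14 called desert windows passed the filter through the MEF libraries alone, both ES values being under 1, so that they had to differ, and their number supports nothing. Both called Cyria windows passed through both groups. Without the filter 9 of the 529 windows were called, all higher in MEFs, against 2.91% of all 7348 called and 1.05% called higher in MEFs. By edgeR with at least 20 counts 2 of 484 were called, both in Cyria and higher in MEFs, against 4.49% of 5409 called and 1.89% called higher in MEFs. At an unadjusted p under 0.05 those fits gave 91 of 529 and 63 of 484 windows, against 714 of 7348 and 600 of 5409. The limma count fell to 6 without ES replicate 2 and to 1 without MEF replicate 1.

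The called windows joined into 3 runs. The farthest, 11975001 to 12003000, covered 28 kb with 6 called windows and no gene. Its peak window, 11975001 to 11985000, held 0.114 and 0 in the ES libraries and 1.07 and 1.03 in the MEF libraries, from 10, 0, 18 and 61 counts. The log2 difference was -0.96. Because the window passed the filter through the MEF libraries alone, its p is taken from the fit without the filter (limma adjusted p = 0.0165). The next run, 12189001 to 12206000, covered 17 kb with 8 called windows, also with no gene. Its peak window, from 12189001, held 0.239 and 0.147 against 1.43 and 1.03, with a difference of -0.90 on the log2 scale (limma adjusted p = 0.0417 without the filter, for the same reason). With the filter, neither peak could be tested once either MEF replicate was left out, because it then no longer passed. Both peaks lost the call, with the filter, without ES replicate 2 (adjusted p = 0.0523 and 0.0817) and by edgeR over windows with at least 20 counts (adjusted p = 0.050 and 0.137).

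The third run, 12342001 to 12353000, lies in Cyria and touches the lncRNA gene 4921511I17Rik. Its peak window, 12342001 to 12352000, was the highest of the gene body in MEFs, with 4.41 and 2.05 counts per 1000 against 0.954 and 1.43 in ES cells. MEF replicate 1 stood well above the other 3 libraries. Its log2 difference of -0.90 had an SE of 0.32 and a limma adjusted p = 0.0401 (edgeR adjusted p = 0.0167). The limma call was lost without MEF replicate 1 (adjusted p = 0.328), without either ES replicate (0.213 and 0.0770), without the filter (0.0585), with median centring (0.210), with quantile normalization (0.224) and without the intensity trend (0.0653).

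Other windows of the gene body were closer between groups or did not pass the test. The highest of Cyria in ES cells, from 12321001, held 2.08 and 2.53 in the ES libraries and 2.68 and 2.51 in the MEF libraries, which overlap. The window centred on the Cyria start, 12257001 to 12267000, which begins just outside the gene and so counts among the desert windows, contains the printed promoter stretch and its GATC. It held 1.75 and 1.17 in the ES libraries and 1.25 and 0.825 in the MEF libraries. The groups overlap there (log2 difference 0.27, limma adjusted p = 0.483). The window at the other end of the gene, from 12376001, held 0.966 and 1.47 against 2.68 and 1.85 (log2 difference -0.56, limma adjusted p = 0.159). The tested Cyria window that leaned most to ES cells, from 12315001, held 1.86 and 2.31 against 1.43 and 1.82 (log2 difference 0.23, limma adjusted p = 0.581). The lowest of the gene body were 0.352, 0.476, 1.19 and 0.623 from 12296001 in ES cells, and 0.602, 0.403, 0.537 and 0.353 from 12331001 in MEFs, each given as ES replicates 1 and 2 and then MEF replicates 1 and 2.

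Within the desert the highest windows of both groups lay close to Cyria. The highest in ES cells, from 12233001, held 2.11 and 1.21 in the ES libraries and 1.55 and 0.623 in the MEF libraries, with wide spread in both groups. The highest in MEFs, from 12222001, held 1.42 and 1.39 against 1.73 and 1.93 (limma adjusted p = 0.567). The tested desert window that leaned most to ES cells was the one from 12251001, just before the Cyria start. It held 1.11 and 1.03 in the ES libraries and 0.477 and 0.724 in the MEF libraries, a log2 difference of 0.38 (limma adjusted p = 0.225). It was called higher in ES cells only with median centring, under which 10 of the 169 windows were called, 1 of them higher in the ES group and 9 in the MEF group, against 24.9% of all tested windows called and 3.25% called higher in MEFs. At the bottom, the window from 12041001 held 1 and 0 counts in the ES libraries and 10 and 7 in the MEF libraries. The window from 11912001 ran the other way, with 24 and 7 counts in the ES libraries and 0 and 1 in the MEF libraries (edgeR adjusted p = 0.604).

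The interval overlaps 11 genes of the RefSeq table, and Cyria is the one that codes for protein. The others are 6 lncRNA genes, 3 pseudogenes and a snoRNA gene, and their levels are means of the windows that overlap them. In the limma fit over gene bodies 5 of 7 features were called, all higher in MEFs (71.4%). Of the 11 genes here that fit tested 2 and called both higher in MEFs. One was Cyria. The other was 4921511I17Rik, a lncRNA gene at 12351522 to 12392475 that overlaps the near end of Cyria and therefore shares its windows. It held 1.21 and 1.33 in the ES libraries and 2.44 and 2.10 in the MEF libraries (log2 difference -0.49, SE 0.13, limma adjusted p = 0.0059; edgeR -0.78, adjusted p = 0.0048). The edgeR call was lost when any 1 library was left out (adjusted p from 0.0875 to 0.270).

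At the far end of the desert, Gm34237, a lncRNA gene at 11826485 to 11897723, held 0.160 and 0.128 in the ES libraries and 0.499 and 0.348 in the MEF libraries, 2.94-fold more. The groups did not overlap, and the edgeR log2 difference was -1.79 (adjusted p = 0.0048). The call was lost without ES replicate 1 (edgeR adjusted p = 0.237), ES replicate 2 (0.133) or MEF replicate 1 (0.117). The window at its printed start, from 11821001, held 0.443 and 0 against 0.477 and 0.185, and the groups overlapped at that start.

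The small genes in or at the edge of the called stretch from 11962134 to 12037133 had the same order of groups. Most windows that overlap them belong to that stretch. It was chosen after its values were seen, so their order adds no support. Gm25610, a snoRNA gene, held 0.106 and 0.0733 in the ES libraries and 0.788 and 0.292 in the MEF libraries. The pseudogene Gm4294 held 0.0988 and 0.154 against 0.829 and 0.502. Gm46334, a lncRNA gene at 12031934 to 12039401, was at 0 and 0.234 against 0.467 and 0.484. None of them had 10 windows starting within it, so none was tested, and each value stands for a few overlapping windows.

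Nearer to Cyria the noncoding genes overlapped between groups. Gm34348, at 12145208 to 12147695, held 0.346 and 0.794 in the ES libraries and 1.16 and 0.610 in the MEF libraries. Gm40838, a lncRNA gene at 12237189 to 12254299 just before the Cyria start, held 1.15 and 0.803 against 1.07 and 0.688 (edgeR log2 difference 0.25, adjusted p = 0.854). Gm34407, inside Cyria, held 0.964 and 0.833 against 1.41 and 0.949. The pseudogene Gm18240 held 0.119 and 0.333 against 0.325 and 0.202, also overlapping, whereas Tubb2a-ps2, a pseudogene inside Gm34237, held 0.299 and 0.0696 against 0.364 and 0.882. Of 11 landmark genes around the interval, from Nt5c1b to Nbas, the limma fit tested 2 and called 1, the lncRNA gene Gm34489 between Cyria and the viewpoint, as higher in MEFs. Among those with at least 20 counts, edgeR called Gm34489 higher in MEFs and Smc6, which lies beyond the desert, higher in ES cells (0.969 and 0.871 against 0.315 and 0.290; log2 difference 1.66, edgeR adjusted p = 6.9e-05). The landmarks Mycn, Msgn1 and Rdh14 were in neither fit, because fewer than 10 windows start in each. Mycn held 23.6 and 22.1 in the ES libraries and 5.96 and 6.34 in the MEF libraries, and that difference was not tested.

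The same distances on both sides of the viewpoint were then compared. On the Mycn side, over Ddx1 and Nbas, 554 windows averaged 0.785 and 0.740 in the ES libraries and 0.802 and 0.711 in the MEF libraries, which overlap. Relative to that side, the interval stood at 0.690 and 0.728 in the ES libraries and 1.19 and 1.13 in the MEF libraries. The ES libraries had fewer contacts on the Cyria side than on the Mycn side, and the MEF libraries more. This ratio too does not depend on library scaling. The log2 difference was -0.71, with no overlap (exact permutation p = 0.333, the smallest possible).

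Distance bins showed where the sides parted. In 50 kb bins of distance, the Cyria side had both ES libraries below both MEF libraries in 11 of 12 bins, and the Mycn side in 5 of 12, with 1 bin the other way (25.7% of 50 kb segments have that order). From 750 to 800 kb the Cyria side held 0.0568 and 0.148 in the ES libraries and 0.624 and 0.559 in the MEF libraries, where the Mycn side held 0.128 and 0.222 against 0.277 and 0.184, which overlap. From 800 kb outward, however, all 4 bins of the Mycn side also had both ES libraries lower. From 850 to 900 kb, for example, it held 0.219 and 0.243 against 0.659 and 0.415. The low ES level of the farthest desert was therefore shared with the Mycn side. In the 8 bins below 800 kb, the Cyria side had that order in 7 and the Mycn side in 1. These bins were examined after the values were seen and were not tested.

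**Figure D4:**
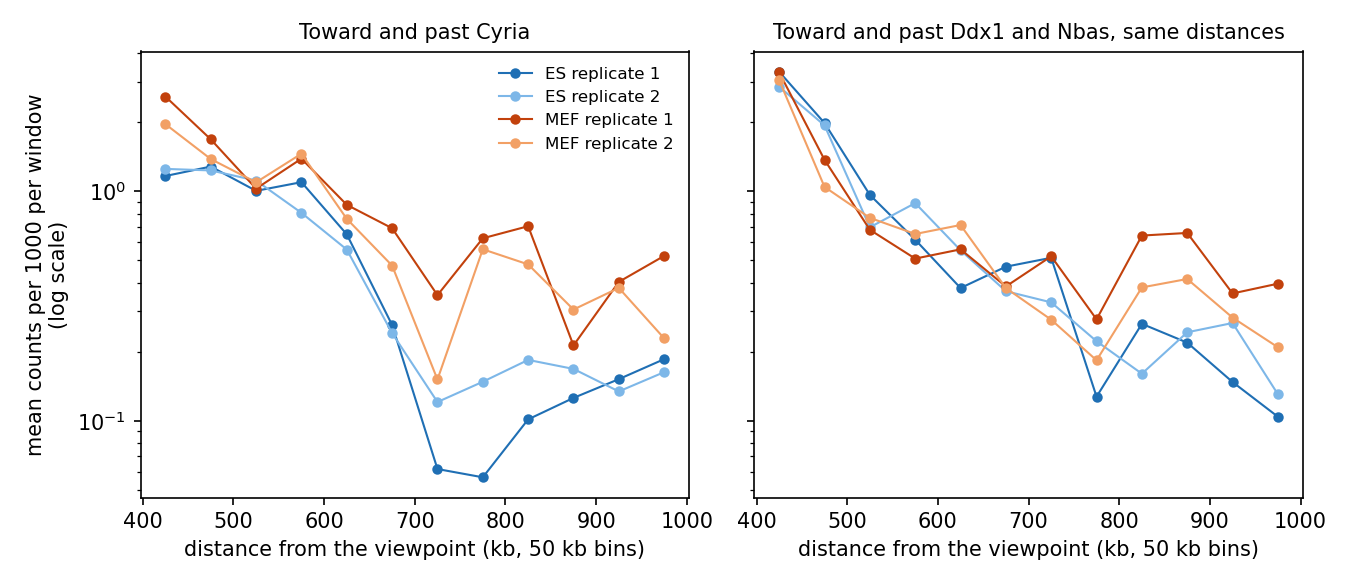
Mean counts per 1000 per window (log scale) in 50 kb bins of distance from the viewpoint, on the Cyria side (left) and on the Mycn side (right), for each library. On the left the ES lines run below the MEF lines in 11 of 12 bins and drop to between 0.0568 and 0.148 at 750 to 800 kb. On the right the lines of both groups cross up to 800 kb, and the ES lines lie lower in the 4 bins beyond.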

How the data were processed

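Titles gave each sample its group. The deposited table gives CPM by name, per the file headers, in 10 kb windows stepping by 1 kb. Per the submitters' processing notes, Bowtie 1.0.0, edgeR and mm10 were used, in unstated roles; window counting and duplicate removal are not given in the sources used here. All values (100%) were whole multiples of 1 step within 0.01 count, and were read as counts per 1000 of a library total, a scale not stated anywhere. Listed windows had counts in at least 3 of 4 libraries.

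limma 3.58.1 in R 4.3.3 (eBayes with trend) compared log2(value + 1) in two-sided tests, adjusted by Benjamini-Hochberg at 0.05 over all windows, segments or gene bodies of the table with at least 1 per 1000 in 2 libraries. This understates changes of low values, which are most of the desert, so edgeR 4.0.16 was run on the recovered counts of features with at least 20 counts, a choice made after seeing the data. Segments hold the windows that start in them; their counts are summed window counts divided by 10, rounded. Both tools were tested on simulated data. Named windows are the peaks of called runs (calls up to 20 kb apart) and the highest, lowest and most different windows of gene and desert; named genes are all in the interval and 11 landmarks. The members and lists were chosen with earlier results of these data known. Genes are from RefSeq (GRCm38.p6); exons were not used here. Figures used matplotlib 3.10.9.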

Additional observations from a re-analysis of the deposited data

How the results depend on the processing

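The 16 called windows became 9 without the filter, 10 with median centring, 9 with quantile normalization, 10 without the intensity trend, 25 with totals that leave out 50 kb around the viewpoint, 15 by edgeR at the same filter, 2 by edgeR with at least 20 counts, and 1 among windows that do not overlap. The single limma 50 kb call became 2 without the filter, 2 with the reduced totals, 2 of 11 tested by edgeR with at least 20 counts (1 by edgeR at the same filter), 3 at 25 kb, and 0 with median centring or quantile normalization. The edgeR counts of 2 (50 kb) and 6 (25 kb) became 1 and 3 with TMM. Leaving out 1 library gave 1 to 17 windows, 0 to 1 limma segments, 1 to 4 and 1 to 3 edgeR segments at 50 and 25 kb, and a Cyria log2 difference of -0.39 to -0.24. That difference, -0.32 in the main setting, turned to 0.17 with median centring and 0.071 with quantile normalization; it had limma adjusted p = 0.0908 without the filter and 0.0867 (-0.30) over windows wholly inside the gene. The 50 kb segment from 12212134 turned from -0.038 to 0.14 (median centring) and 0.041 (quantile), with a range of -0.10 to 0.029 as 1 library was left out (0.029 without ES replicate 2, 0.0053 without MEF replicate 1), and that from 12262134 from -0.17 to 0.016 (median centring). The ratio of Cyria to desert turned from 0.32 to -0.070 over windows that passed the filter. The causes were not tested.

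The share, Mycn-side and decay differences kept their sign in every alternative run for them, but most of these could not turn it. The groups do not overlap in these values, so a fit without 1 library had to keep the sign. The replicate block repeats the main value, as does counting unlisted windows as 0 for the Mycn side. Median centring and quantile normalization were not run on the share. Leaving out 1 library gave shares of -2.58 to -1.56 points, side differences of -0.75 to -0.67, slopes of -1.5 to -1.05 and gene-to-desert ratios of 0.18 to 0.45. Replicate numbers do not pair the samples (r of deviations 0.04 over 1107 windows); with the number as a replicate block limma called 20 windows and 1 segment, edgeR called 3 and 7 segments, and the edgeR call of Cyria was lost (adjusted p = 0.133). Depth limits low windows: 1 count in MEF replicate 1 is 0.0596 per 1000, and 49 windows of the interval were at 0 in each ES library.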
